A study of Mus musculus with 10 samples.

Results

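The Fos, Jun, Egr and Npas4 transcription factors were followed through a table of RNA synthesis, processing and degradation rates from cultured mouse cortical neurons. The members were 10 genes taken by name: Fos, Fosb, Fosl2, Jun, Junb, Egr1, Egr2, Egr3, Egr4 and Npas4. Of these, 8 had a row among the 8590 rows of the rate table used here. Fosb and Egr1 had no row, Egr2 and Egr4 had rows without any estimate, and 6 members had at least 1 rate. Wild-type neurons were compared with neurons labelled as knockout for Fmr1, the gene that is silenced in fragile X syndrome and encodes the RNA-binding protein FMRP. Both genotypes carry the strain label FVB.129P2-Pde6b+ Tyrc-ch/AntJ. The cortices were taken at embryonic day 18 and cultured until day 14 in vitro (DIV 14), when 200 µM 5-ethynyluridine, a uridine analogue that enters new transcripts, was given for 20 or 60 min. Each genotype gave 1 library per labelling time, so that rates exist for 4 labelled libraries, and the other 6 samples (inputs and pull-downs of unlabelled RNA) have no rates of their own. The labels do not say whether the libraries came from separate cultures, and the p-values measure only the spread between these libraries.

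These genes are the classic immediate-early transcription factors of neurons, switched on by synaptic activity without a need for new protein. Fos and Jun proteins pair through leucine zippers to form AP-1, Egr proteins bind GC-rich sites through zinc fingers, and Npas4 is a basic helix-loop-helix PAS protein induced by calcium entry. Their promoters are known targets of CREB and SRF, and their mRNAs are known to be short-lived, in several cases through AU-rich elements in the 3′ untranslated region.

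Stretches of the 3′ untranslated region holding the pentamer ATTTA, the core of an AU-rich element, are shown because the degradation rate is the rate in which the members differed most. Each is the first window with the highest count in its gene. In Junb and Egr3 no window of 30 bases held more than 1 pentamer, so the first site is shown. Each line is a window of 30 bases from GENCODE M21 on GRCm38, written as DNA, with the pentamers in capitals. They lie at chr12:85477101-85477130 on the plus strand (Fos), chr5:32156865-32156894 on the plus strand (Fosl2), chr4:95049207-95049236 on the minus strand (Jun), chr8:84977126-84977155 on the minus strand (Junb) and chr14:70081097-70081126 on the plus strand (Egr3).
Fos: tgtgttttcaATTTATTTAttaagatggat
Fosl2: attgacATTTAttttattATTTAttttaaa
Jun: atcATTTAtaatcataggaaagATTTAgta
Junb: atatatttgtgtATTTAacagggaggggag
Egr3: ttagacacatatATTTAcataacacacact

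The 3′ untranslated region of Fos held 4 pentamers in 815 bases, or 4.91 per 1000 bases, which lay at the 93.7th percentile of the 8139 table genes with an annotated region. Junb held 2 in 485 bases (4.12 per 1000, 90.2nd percentile) and Jun 4 in 1233 bases (3.24 per 1000, 82.9th percentile). The density was 2.65 per 1000 bases in Egr3, 1.72 in Fosl2 and 1.40 in Npas4, against a median of 1.32 over all genes. Egr4 had none in its 519 bases. A window of 30 bases with 2 or more pentamers, as in Fos, Fosl2 and Jun, occurred in 19.4% of genes. At least 1 pentamer, the most in any window of Junb and Egr3, occurred in 69.7%. A match is a description of these letters and not a tested decay site.

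The promoters of Fos, Junb and Jun are shown because CREB binds TGACG, the core of the cyclic AMP response element. Jun and Junb lay at or above the 98.6th percentile of synthesis rate in all 4 libraries, as did Egr3, for which no promoter entry was matched. Fos lay lower in the 60 min libraries (94.7th percentile in wild type, 87.0th in the knockout). The 250 bases before the RefSeq start (GRCm38.p6) were searched on both strands for TGACG and for the full palindrome TGACGTCA, which contains it. The windows are chr12:85473640-85473889 on the plus strand (Fos), chr8:84978749-84978998 on the minus strand (Junb) and chr4:95052223-95052472 on the minus strand (Jun), with the core in capitals. A window of 30 bases at chr19:4990129-4990158 on the minus strand is given for Npas4.
Fos: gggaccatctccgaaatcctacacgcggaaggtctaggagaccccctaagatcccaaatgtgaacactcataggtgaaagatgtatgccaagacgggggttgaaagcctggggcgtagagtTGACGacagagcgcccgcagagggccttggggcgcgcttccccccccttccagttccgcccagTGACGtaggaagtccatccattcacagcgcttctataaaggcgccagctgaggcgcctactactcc
Junb: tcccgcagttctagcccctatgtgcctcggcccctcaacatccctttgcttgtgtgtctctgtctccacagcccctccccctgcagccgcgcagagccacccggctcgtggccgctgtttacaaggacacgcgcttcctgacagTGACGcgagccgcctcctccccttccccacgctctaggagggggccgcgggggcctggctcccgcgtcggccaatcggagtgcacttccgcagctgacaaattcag
Jun: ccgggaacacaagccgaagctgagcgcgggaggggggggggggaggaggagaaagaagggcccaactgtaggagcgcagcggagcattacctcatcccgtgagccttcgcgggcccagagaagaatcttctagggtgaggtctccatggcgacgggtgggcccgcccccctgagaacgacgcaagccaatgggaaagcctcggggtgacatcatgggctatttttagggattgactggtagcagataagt
Npas4: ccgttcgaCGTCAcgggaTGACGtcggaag

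The core TGACG occurred 2 times in the Fos window, 2 times in that of Npas4, 1 time in that of Junb and 0 times in those of Jun and Fosl2. It occurred 2 times in that of Egr4, 1 time in that of Fosb, and 0 or 2 times in those of Egr2, depending on which of its starts was taken. Over 32851 promoter windows of the same length, 17.8% held it at least 1 time, 3.90% held it 2 or more times, and 1.55% held the full palindrome, which none of these windows contained. A promoter entry was matched for 8 of the 10 members.

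Estimates were missing for 7.23% to 7.59% of rows in the wild-type libraries and for 24.4% to 26.6% in the knockout, for synthesis rate. The depth behind each rate is unknown. Of 12 neuron markers 3 had a synthesis rate in at least 1 library (Rbfox3, Slc17a6 and Gad2), of 8 astrocyte markers 3, of 8 oligodendrocyte lineage markers 5 (Mbp among them), of 6 progenitor markers 5, and of 8 microglia and 5 endothelial markers 0. Fewer of these markers had an estimate in the knockout, so sums are first given over those with one in all 4 libraries. For the neuron markers Rbfox3 and Slc17a6 the summed synthesis rate was 3.12 and 1.78 in wild type, at 20 and 60 min, against 2.40 and 1.31 in the knockout. It was 2.11 and 1.11 against 2.76 and 1.23 for Aldh1l1 (astrocytes), 17.96 and 12.58 against 20.2 and 13.8 for Olig2 (oligodendrocyte lineage) and 1.89 and 1.20 against 1.94 and 1.11 for Nes (progenitors). Over all progenitor markers with an estimate it was 3.22 and 2.57 in wild type (4 markers each). In the knockout it was 6.81 and 8.02, from 3 and 2 markers. No other marker list had a higher sum in the knockout at both times. The part of other cells in the results was not tested. Fmr1, the targeted gene, had a ratio of synthesis to degradation rate of 10.5 and 10.3 in wild type, at 20 and 60 min, and of 0.800 and 0.586 in the knockout, although its synthesis rate was not lower there (0.810 and 0.692 against 2.06 and 1.56).

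**Figure D1:**
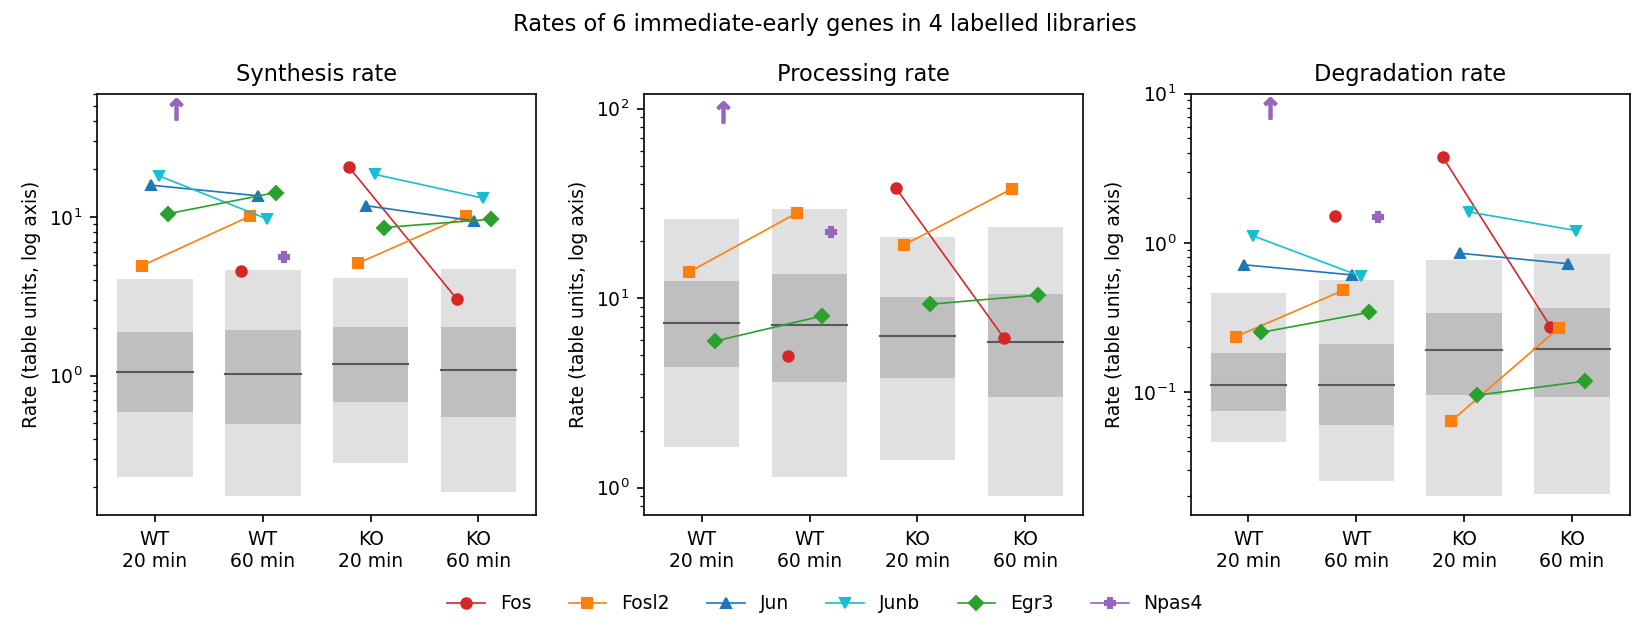
Synthesis, processing and degradation rates (log axes, units of the deposited table) of the 6 members with estimates, in wild-type (WT) and knockout (KO) libraries labelled for 20 or 60 min. Each point is 1 library, lines join the labelling times of a genotype, grey boxes span the 5th to 95th and the 25th to 75th percentiles of all genes with the median as a line, and arrows mark the Npas4 values of the 20 min wild-type library, which lie beyond the axes. In the synthesis panel all points lie above the 25th to 75th percentile box.

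Synthesis was high for the 6 members that had an estimate, at or above the 87.0th percentile in each library that had one, with Npas4 measured in wild type only. The rates are in the units of the deposited table, whose time unit is not stated, and whether they are per length is not stated either. Across genes the synthesis rate correlated with transcript length at rho between -0.0723 and 0.0771 in the 4 libraries.

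Fos, the AP-1 subunit most used as a marker of neuronal activity, had no synthesis estimate in the 20 min wild-type library. Its synthesis rate was 4.57 in the 60 min wild-type library, 20.6 in the 20 min knockout library and 3.04 in the 60 min knockout library. The knockout libraries thus stood on either side of the only wild-type value, and differed from each other by 6.78-fold. At 60 min, the only time with both genotypes, the log2 difference of knockout minus wild type was -0.59.

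Fosl2, which encodes the Fos-related subunit Fra-2, had synthesis rates of 4.93 and 10.1 in wild-type neurons and 5.10 and 10.2 in knockout neurons, at 20 and 60 min. The genotypes overlapped and were nearly equal at each time, and the log2 change was 0.03 (SE 0.587, limma adjusted p = 1.00). It turned to -0.49 without the 20 min wild-type library and to -0.47 without the 60 min knockout library. The 60 min value was close to 2-fold the 20 min value in both genotypes.

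Jun, the main partner of Fos, had synthesis rates of 15.9 and 13.6 in wild-type neurons and 11.8 and 9.45 in knockout neurons. Both knockout values lay below both wild-type values, as they did in 9.2% of the 5794 genes with all 4 estimates. The log2 change was -0.48 (SE 0.396, limma adjusted p = 1.00), and -0.29 with quantile normalization. Junb, a second Jun family subunit, had synthesis rates of 18.1 and 9.71 in wild-type neurons and 18.5 and 13.2 in knockout neurons. The genotypes overlapped, and the log2 change was 0.24 (SE 0.496, limma adjusted p = 1.00). It turned to -0.22 without the 60 min wild-type library and to -0.012 without the 20 min knockout library, and was 0.45 with quantile normalization.

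Egr3, a zinc finger factor of the synapse-activity response, had synthesis rates of 10.5 and 14.3 in wild-type neurons and 8.58 and 9.68 in knockout neurons. The knockout values lay below the wild-type values, and the log2 change was -0.42 (SE 0.406, limma adjusted p = 1.00). Leaving out the 60 min wild-type library gave -0.20, and the change was -0.25 with quantile normalization and -0.21 in the authors' deposited table. The synthesis rank of Egr3 moved little, between the 98.6th and 99.3rd percentile in the 4 libraries.

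Npas4 had estimates in wild type only. Its synthesis rate was 5.60 in the 60 min library, at the 96.9th percentile. In the 20 min wild-type library it was listed at 2688444153, the second highest value of 7938 genes, and 3 genes of that library exceeded 1000. Both knockout libraries lacked an estimate for each of the rates of Npas4, so that no comparison between genotypes could be made for it.

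By limma, 0 of the 4 members with all estimates passed an adjusted p of 0.05 for synthesis rate, where 0% of 5794 genes did and 18 genes reached an unadjusted p of 0.05. These members had a median log2 change of -0.20, against -0.026 over all genes tested. Jun and Egr3 were lower in the knockout at both times, as were 32.3% of genes, and Fosl2 and Junb were higher at both, as were 24.3%. Without the 20 min wild-type library, Fos had a log2 change of 0.79 (SE 1.01) at a limma adjusted p of 1.00, a fit that sets 60 min wild type against both knockout times and has the opposite sign to the matched 60 min difference of -0.59. The authors' deposited table gave Fos a log2 change of -0.56 in synthesis rate (limma adjusted p = 1.00).

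**Figure D2:**
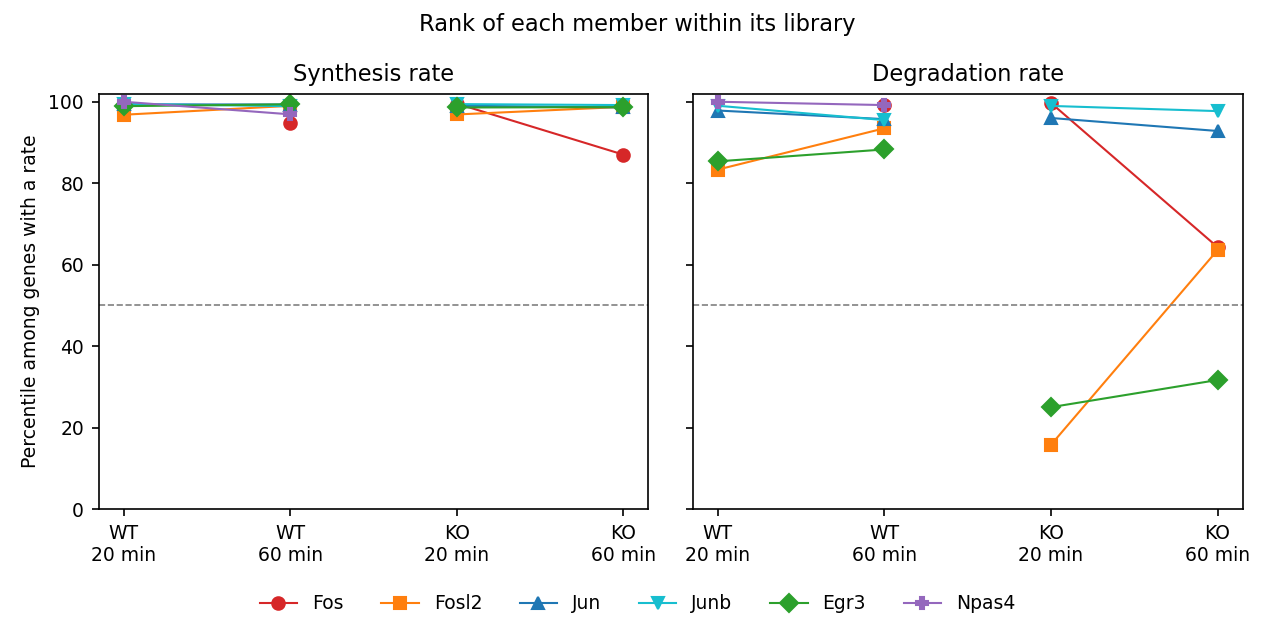
Percentile of each member among all genes with a rate in the same library, for synthesis (left) and degradation (right), in wild-type (WT) and knockout (KO) libraries labelled for 20 or 60 min; the dashed line marks the median gene. Synthesis ranks stayed at or above the 87.0th percentile, while the degradation ranks of Egr3 and Fosl2 were lower in the knockout and those of Jun and Junb stayed above the 92nd.

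Processing rates, which describe how fast precursor is turned into mature RNA, were listed for Fos, Fosl2, Egr3 and Npas4. Jun and Junb, which GENCODE annotates with 0 introns in the coding transcript, had none, nor had Egr2 and Egr4, which have 1 intron each. Fos (3 introns) had a processing rate of 4.96 in the 60 min wild-type library, and of 38.1 and 6.20 in the 20 and 60 min knockout libraries. At 60 min the knockout was higher by 1.25-fold, a log2 difference of 0.32 at the 83.4th percentile of genes, and the 20 min knockout value was 6.15-fold that of the 60 min knockout library. Fitted without the 20 min wild-type library, and so across unequal labelling times, the log2 change of Fos was 1.63. The authors' deposited table gave it 1.55 (limma adjusted p = 0.580). Fosl2 (3 introns) had processing rates of 13.7 and 28.1 in wild-type neurons and 19.1 and 37.8 in knockout neurons. Each knockout value exceeded the wild-type value of the same time, although the genotypes overlapped. Egr3 (1 intron) had processing rates of 5.92 and 8.06 in wild-type neurons and 9.29 and 10.4 in knockout neurons, with no overlap. The ratio of synthesis to processing rate of Egr3 and of Fosl2 was the same at both wild-type times to 3 digits, so these wild-type processing rates, too, are not independent estimates. In the knockout this ratio was also close between times, at 0.923 and 0.932 for Egr3 and 0.267 and 0.269 for Fosl2. The knockout processing rates of these members thus differed between times nearly as their synthesis rates did.

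The log2 change of processing rate was 0.51 in Egr3 (SE 0.422, limma adjusted p = 0.600) and 0.46 in Fosl2 (SE 0.586, limma adjusted p = 0.740), and 0 of these 2 members passed, where 0% of 5082 genes passed. Most genes lay on the other side: the median change over all genes was -0.36, and 70.1% of genes were below 0. A processing rate higher in the knockout at both times, as in both members, was found in 20.8% of genes, and both knockout values above both wild-type values, as in Egr3, in 11.5%. With labelling time as a block the limma adjusted p was 0.168 for Egr3 and 0.193 for Fosl2, where 25.6% of genes passed, 6.26% higher and 19.3% lower. Without the 20 min wild-type library the change of Fosl2 was -0.061, and without the 60 min knockout library -0.036. The change of Egr3 was 0.28 without the 20 min wild-type library, 0.86 with centring and 0.90 with quantile normalization, and that of Fosl2 was 0.80 and 0.88 with these scalings. Npas4 (7 introns) had a processing rate of 22.3 in the 60 min wild-type library, and its 20 min value of 10708058761 was the highest listed there.

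In wild type, degradation rates of all 6 members lay at or above the 83.3rd percentile, as did those of Jun and Junb in the knockout, whereas those of Egr3 and Fosl2 were lower in the knockout at both labelling times, a difference that passed the test only in some settings. This ran opposite to the table at large, in which the median log2 change was 0.65. Centring each library on its median removed 0.86 log2 units, which lay between the genotypes: the median log2 rate was -3.20 and -3.14 for wild-type libraries, against -2.32 and -2.31 for knockout libraries. Whether this difference is technical was not tested.

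Egr3 had degradation rates of 0.251 and 0.342 in wild-type neurons and 0.0952 and 0.118 in knockout neurons, at 20 and 60 min. The means were 0.296 ± 0.0641 and 0.107 ± 0.0163 (SD, n = 2 per genotype). The wild-type values of each member differ only as its synthesis rates do, so the SD, SE and p-values of its degradation rate do not rest on independent estimates, as with processing. All knockout values lay below all wild-type values, as in 16.5% of 5716 genes, and the knockout was lower by 2.64-fold at 20 min and 2.89-fold at 60 min. The log2 change was -1.46 (SE 0.362), at the 8.33rd percentile of all changes, with a limma adjusted p of 0.0530 that missed the threshold of 0.05. With labelling time as a block the limma adjusted p was 0.0215. The authors' deposited table gave Egr3 a log2 change of -1.46 and a limma adjusted p of 0.0311. With libraries centred, which takes out this difference between genotypes, the change was -2.32 (limma adjusted p = 0.0516).

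Fosl2 had degradation rates of 0.235 and 0.480 in wild-type neurons and 0.0639 and 0.269 in knockout neurons. At each labelling time the knockout was lower, by 3.67-fold at 20 min and 1.78-fold at 60 min, but the 60 min knockout value exceeded the 20 min wild-type value. The log2 change was -1.36 (SE 0.846, limma adjusted p = 0.285), and with labelling time as a block the limma adjusted p was 0.0473. It was -2.21 with centring (limma adjusted p = 0.141) and -2.10 with quantile normalization (limma adjusted p = 0.119). Without the 60 min knockout library the change was -2.39, and without the 20 min knockout library it was -0.32.

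Fos had a degradation rate of 1.52 in the 60 min wild-type library, where it ranked 65th highest of 7969 genes. In the knockout it was 3.76 at 20 min and 0.274 at 60 min, a 13.7-fold difference between libraries of 1 genotype. At 60 min the knockout was lower by 5.54-fold, at the 5.94th percentile of differences at that time. Fitted without the 20 min wild-type library, and so across unequal labelling times, the log2 change was -0.58 (SE 1.92, limma adjusted p = 0.841). For its degradation rate the authors' deposited table holds no test.

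Jun had degradation rates of 0.712 and 0.609 in wild-type neurons and 0.851 and 0.724 in knockout neurons. The knockout values were higher at both times by about the same amount, and the log2 change was 0.25 (SE 0.330, limma adjusted p = 0.591). Junb had degradation rates of 1.11 and 0.596 in wild-type neurons and 1.61 and 1.21 in knockout neurons. Both knockout values exceeded both wild-type values, which was the case in 52.6% of genes, and the log2 change was 0.77 (SE 0.458, limma adjusted p = 0.264). Once libraries were centred, both changes were below 0, at -0.60 for Jun and -0.083 for Junb. The authors' deposited table gave Junb a log2 change of 1.41 (limma adjusted p = 0.0871), larger than the 0.77 found here, and the values that entered that fit are not stated.

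Npas4 had a degradation rate of 1.48 in the 60 min wild-type library, the 67th highest, and 710949856 at 20 min.

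**Figure D3:**
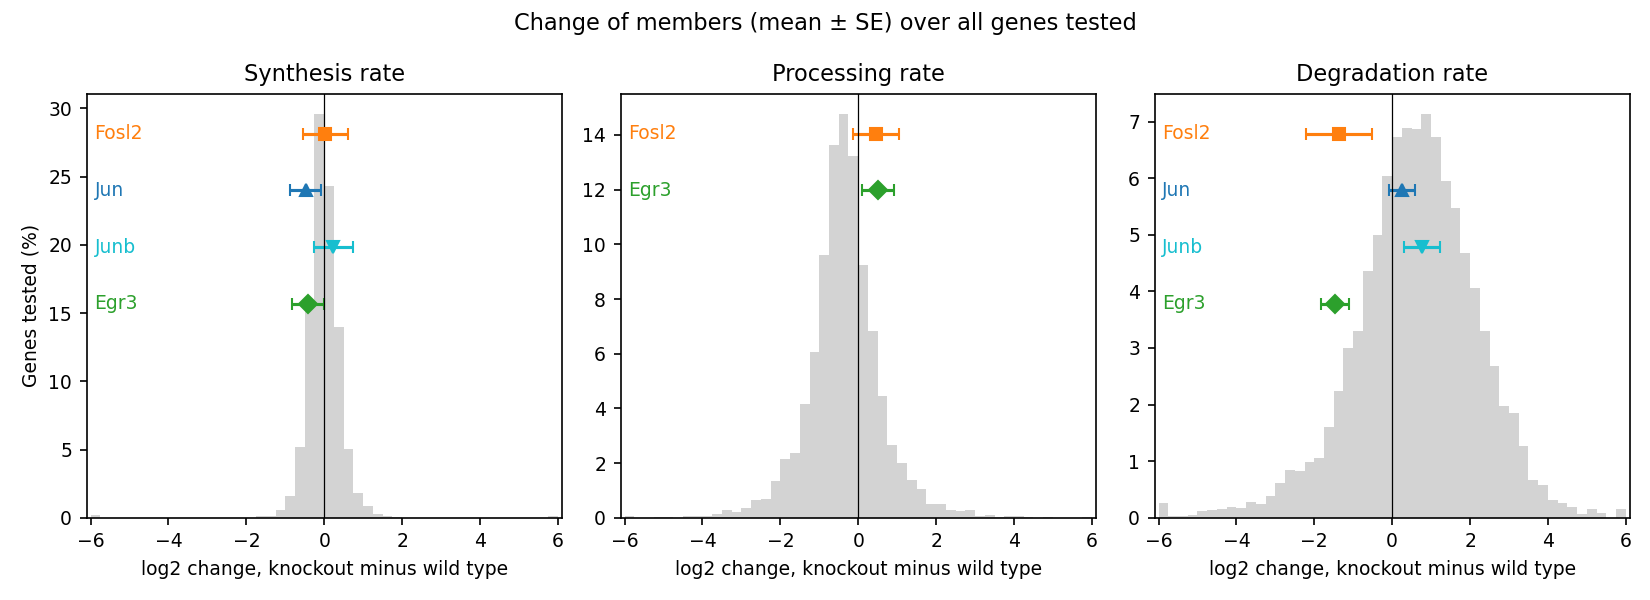
Log2 change of knockout minus wild type (points, with SE from limma) for members with estimates in all 4 libraries, over the distribution of all genes tested (grey bars, percent of genes per bin, with the outermost bins holding all values beyond 6 log2 units). In degradation, Egr3 (-1.46) and Fosl2 (-1.36) lie left of 0 and of the bulk of genes, and Jun (0.25) and Junb (0.77) lie within it.

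By limma, 0 of 4 members passed for degradation rate, where 23.1% of 5716 genes passed, 2.57% lower and 20.5% higher in the knockout. After centring 1.61% of genes passed, 1.05% lower, and again 0 of 4 members. In the authors' deposited table Egr3 alone of these 4 passed, where 36.3% of 6182 genes passed, 7.09% lower and 29.2% higher. With the block 2 of 4 members passed, both lower, where 48% of genes passed, 9.76% lower and 38.2% higher. With the block and centring the same 2 members passed, where 36.2% of genes did and 22.4% were lower. Lower rates at both times, as in these 2 members, were found in 26.2% of genes, and higher rates at both times, as in Jun and Junb, in 62.1%. The median log2 change of the 4 members was -0.55, against 0.65 over all genes. The 2 members that were lower, Egr3 and Fosl2, have introns, and the 2 that were not, Jun and Junb, have none. Fos, with 3 introns, was not among the 4, and its knockout values lay on both sides of its wild-type value. A link with introns was not tested. In the table at large, the 170 tested genes annotated without introns had a median change of 0.25 and the 5385 with introns one of 0.68. Across genes, the Spearman correlation between ATTTA density and degradation rate was 0.103 (7534 genes) and 0.216 (7547 genes) for the 20 and 60 min wild-type libraries, and -0.0511 (6041 genes) and -0.00997 (5852 genes) for those of the knockout, given as a description over genes that share libraries. The gene sets differ between genotypes. At 60 min the density also correlated with synthesis rate (0.119 in wild type, 0.158 in the knockout) and with processing rate (0.153 and 0.124). At 20 min these correlations lay between -0.0168 and 0.0406. A link between the pentamer and decay was not tested.

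The ratio of synthesis to degradation rate, which stands for the RNA level at which making and decay balance, was lower in the knockout for Jun and Junb and higher for Egr3 and Fosl2. It was 41.7 for Egr3 in both wild-type libraries, and 90.1 and 81.8 in the knockout. The ratio of Fosl2 was 21.0 in wild-type neurons and 79.9 and 37.8 in knockout neurons, at 20 and 60 min. Fos had a ratio of 3.01 in the 60 min wild-type library and of 5.47 and 11.1 in the knockout. The ratio of Jun went from 22.3 in wild type to 13.8 and 13.1 in the knockout, and that of Junb from 16.3 to 11.5 and 10.9. Npas4 had a ratio of 3.78 in both wild-type libraries, also at 20 min, where its rates were extreme.

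The median ratio over genes was 8.43 and 8.39 in wild-type neurons and 6.78 and 6.04 in knockout neurons. The fold differences of Jun (0.620 at 20 min and 0.585 at 60 min) and Junb (0.707 and 0.670) were thus near the gene medians of 0.715 and 0.679, while those of Egr3 (2.16 and 1.96) lay at the 84.0th and 84.2nd percentile. The wild-type ratios of a member were the same at both times to 3 digits, so that its 2 wild-type degradation rates differed only as its synthesis rates did and are no independent measure of replicate error. These ratios were therefore not tested.

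**Figure D4:**
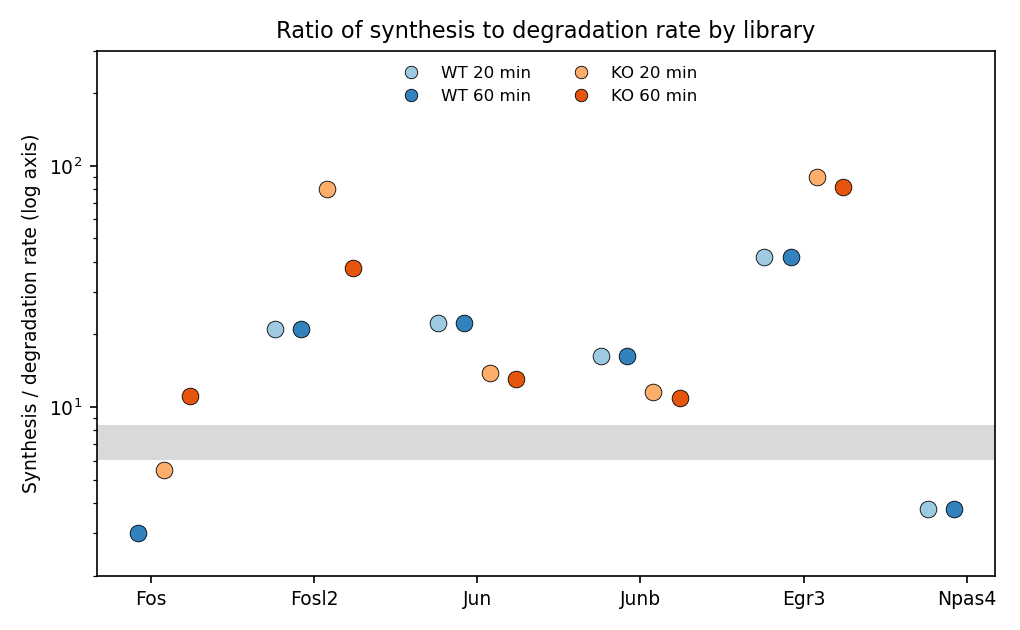
Ratio of synthesis to degradation rate (log axis) for each of the 6 members, 1 point per library, with the range of the library medians over all genes as a grey band (6.04 to 8.43). Wild-type (WT) points of a member coincide, and knockout (KO) points lie above them for Fos, Fosl2 and Egr3 and below them for Jun and Junb.

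Precursor level, given by synthesis rate over processing rate, was lower in the knockout for Fos, Fosl2 and Egr3, the members with estimates in both genotypes. For Egr3 it was 1.77 in wild-type neurons and 0.923 and 0.932 in knockout neurons, and for Fosl2 0.360 and 0.267 and 0.269. For Fos it was 0.921 in the 60 min wild-type library and 0.540 and 0.490 in the knockout. At 60 min the differences of Fos, Egr3 and Fosl2 lay at the 6.79th, 6.75th and 14.0th percentile of 5496 genes, whose median ratio was 1.28-fold higher in the knockout.

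Labelling time was examined because transcripts with short lives are made and lost within the labelling window. The synthesis rate of Fosl2 rose by 1.02 log2 units from 20 to 60 min (SE 0.210, limma adjusted p = 0.0484), by 1.03 in wild-type neurons and 1.00 in knockout neurons. Of 4 members 1 passed, where 18% of genes passed and 5.75% were higher at 60 min. With quantile normalization the limma adjusted p of Fosl2 was 0.0631, and 0 genes passed. Junb had a log2 difference of -0.70 (SE 0.232, limma adjusted p = 0.101), lower at 60 min in both genotypes. The differences were 0.31 for Egr3 (SE 0.220, limma adjusted p = 0.338) and -0.27 for Jun (SE 0.210, limma adjusted p = 0.376). In the knockout, the synthesis rate of Fos differed by -2.76 log2 units, a fall found in fewer than 1 in 200 genes (0.450th percentile).

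Other genes of the pathway were read for degradation rate from 4 lists. Of 21 other AP-1 and related leucine zipper genes 10 were tested, and 1 rose and 1 fell in the knockout, where 20.5% of all genes rose and 2.57% fell, with a median of 0.26 against 0.65. With the block 1 rose and 2 fell (38.2% and 9.76% of all genes). Jdp2, a dimer partner that represses AP-1, fell from 0.415 and 0.439 in wild type to 0.0265 and 0.0906, a fitted log2 difference of -3.12 (SE 0.678, limma adjusted p = 0.0422). Mafk, a small Maf protein, rose from 0.306 and 0.305 to 0.994 and 1.53 (2.01, SE 0.376, limma adjusted p = 0.0318). Jund, the remaining Jun family member, named after its values were seen, had degradation rates of 0.126 and 0.0895 in wild-type neurons and 0.215 and 0.174 in knockout neurons, below those of Jun and Junb in the same libraries.

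Of 46 upstream activators in the SRF, CREB, MEF2, ERK and calmodulin kinase pathways 17 were tested, and 5 rose and 1 fell (20.5% and 2.57% of all genes), with a median of 1.31 against 0.65 over all genes. Rps6ka4, which encodes the kinase MSK2, rose from 0.0562 and 0.0536 to 0.442 and 0.434 (limma adjusted p = 0.0235). The stress kinase gene Map2k4 fell by 2.40 log2 units (SE 0.402, limma adjusted p = 0.0281), and the ribosomal S6 kinase gene Rps6ka2 rose by 2.18 (SE 0.363, limma adjusted p = 0.0275). With the block, 11 rose and 1 fell (38.2% and 9.76% of all genes). Of 8 Egr corepressors and Npas4 partners 2 were tested, and Arnt2, a dimer partner of Npas4, rose from 0.0453 and 0.0275 to 0.154 and 0.129 (limma adjusted p = 0.0368). Of 18 AU-rich element binding and decay factors 7 were tested and 0 passed by limma, where 23.1% of all genes did, with a median of -0.083 against 0.65. With the block 1 passed, as higher, where 38.2% of all genes did. In synthesis and processing rate 0 genes of these lists passed by limma without the block. With the block 0 passed in synthesis rate, and 2 upstream activators, Crtc1 and Mapk14, passed as lower in processing rate (limma adjusted p = 0.0203 and 0.0495), where 19.3% of genes did.

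Among the 5076 genes with all 12 rates, Spred1, an inhibitor of the ERK pathway, lay nearest to the mean profile of Fosl2 and Egr3, the members that had them all, with a root-mean-square difference of 0.58 log2 units over 12 values. Dyrk1a (0.65), a kinase gene, and Vgll4 (0.66), a cofactor of TEAD factors, followed. The nearest single gene to Fosl2 was Vgll4 (0.59) and to Egr3 Insig1 (0.60), a regulator of sterol synthesis, whereas Fosl2 and Egr3 differed from each other by 1.05.

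The genes lie on GRCm38, the assembly also called mm10 that the submitters' processing notes name. Fos spans chr12:85473890-85477273 with 4 exons, and Fosl2 spans chr5:32135801-32157842 with 4 exons. Jun spans chr4:95049034-95052222 with 1 exon, and Junb lies at chr8:84974484-84978718 with 1 exon in its coding transcript. Egr3 spans chr14:70077203-70082614 with 2 exons, and Npas4 chr19:4984355-4990316 with 8 exons.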

How the data were processed

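Libraries were made from pulled-down 5-ethynyluridine RNA, with fly and yeast RNA as spike-ins per the labels' protocols. The submitters' processing notes name cutadapt, Bowtie2, TopHat2, HISAT2 and limma and the builds mm10, dm6 and sacCer3; versions, annotation and use of the spike-ins are not given in the sources used here. The authors deposited linear rates (signal values of 0 or above) in a table named for INSPEcT, and limma tables with log2 changes, p-values and score columns (the last not used), per the file headers.

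Here, genes with a rate above 0 in all 4 labelled libraries were compared on log2 rates without a pseudocount by limma (version 3.58.1, R 4.3.3; lmFit, eBayes, two-sided) with Benjamini-Hochberg adjustment over all genes tested and a threshold of 0.05. On simulated data the fit returned the size of the changes without bias, and nearly all signs, but called few of the smaller changes and, for degradation rate with the block, none of either size. On the data that blocked fit called 48% of genes. The simulated data held changes in a small set of genes and no shift of the whole table between genotypes. These calls therefore cannot be set against those on the data. Whether the blocked p-values of Egr3 and Fosl2 are too small was not tested. For labelling time, genotype was a covariate. The labels give both genotypes the same times, and the 60 minus 20 min differences of the genotypes correlated across genes (Spearman rho 0.735 in synthesis, 0.735 in processing, 0.652 in degradation rate), so the fit with time as a block stands beside results whose call it changed.

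Alternatives were centring, quantile normalization, the block with centring, leaving out genes below the 25th percentile of mean log2 rate, a pseudocount at the 10th percentile of rates, an eBayes trend, the authors' tables and leaving out each library. Members, lists and tests were chosen with earlier results of these data known. Named genes were the members, Fmr1, up to 3 called genes per list and the nearest profiles, passing over predicted and mitochondrially encoded genes; Jund, Crtc1, Mapk14 and the cell type markers fall outside that rule and were named after their values were seen. Promoters came from RefSeq on GRCm38.p6. Transcripts came from GENCODE M21, taking the coding transcript with the longest coding sequence, and 94.7% of rows had a 3′ untranslated region.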

Additional observations from a re-analysis of the deposited data

How the results depend on the processing

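The count of genes called for degradation rate (1321 by limma) was 2741 with labelling time as a replicate block, 92 with centring, 596 with quantile normalization, 2070 with the block and centring and 2245 in the authors' deposited table. Leaving out 1 library gave 1 to 1137. For processing rate (0 called) it was 1300 with the block and 688 with the block and centring, and 1 to 97 without 1 library; for synthesis rate (0) it was 3 to 16 without 1 library. The count of members called for degradation rate (0 of 4) was 2 with the block and 2 with the block and centring, Egr3 and Fosl2. It was 1, Egr3, with quantile normalization, without the lowest 25% of genes, with a pseudocount, with an eBayes trend and in the authors' table, and 0 to 0 without 1 library, which leaves 1 library in a genotype that is assumed to vary like the other.

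The members' median for degradation rate (-0.55) was -1.41 with centring and with the block and centring, -1.22 with quantile normalization, and -0.66 to -0.090 without 1 library. For processing rate (0.48) it was 0.83 with centring and with the block and centring, 0.89 with quantile normalization, and 0.11 to 0.85 without 1 library. For synthesis rate (-0.20) it was -0.050 with quantile normalization, -0.088 in the authors' table over 2 members, and -0.43 to -0.17 without 1 library. For labelling time, 0 genes and 0 members passed with quantile normalization. The degradation rate change of Jun turned to -0.60 with centring, with or without the block, and to -0.34 with quantile normalization, and that of Junb to -0.083 with centring, with or without the block. The cause of these differences was not tested. Without 1 library the change ranged from -0.49 to 0.55 for Fosl2 synthesis, -0.22 to 0.69 for Junb synthesis and -0.061 to 0.97 for Fosl2 processing; the other members kept their signs in these settings. For degradation rate it ranged from 0.14 to 0.37 for Jun and from 0.32 to 1.23 for Junb. The degradation rate of Egr3 was below wild type in each of its 12 alternatives, from -2.32 to -1.17. Depth per library is unknown, and with 2 libraries per genotype the spread is poorly known.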
